A study of Mus musculus with 38 samples.

Results

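Tumour cells in which the von Hippel-Lindau gene Vhl had been deleted were compared with tumour cells that kept it, with Dox, which drives the MYC transgene, withdrawn from both. RNA was sequenced from 3 mouse kidney tumour lines, and the comparison used 12 of the 38 libraries of the series. The reference line was MYC-2983 (genotype MYC+), from a mouse with a doxycycline (Dox) dependent Myc transgene driven in renal tubule cells by the Ksp-cadherin promoter. The VM line (Vhl-/-; MYC +) carried the same transgene and had lost Vhl through a tamoxifen-inducible Cre under that promoter. The VIM line (Vhl-/-; MYC +; Ink-/-/Arf-/-) also lacked Ink4a/Arf, the products of Cdkn2a, in the germ line. The lines were kept in 2 µg per ml Dox, and each contributed 4 libraries from cells plated without Dox and collected 24 h later, so Dox had been withdrawn for that time. The labels gave no strain or age for the mice of origin.

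Each genotype was represented by 1 line from 1 tumour. The 4 libraries of a line were separate samples, and nothing in the labels placed them in separate tumours, so p-values measured the spread between cultures or libraries of a line and not between mice. Vhl status, the tumour of origin, the culture history of the line and any sequencing run specific to a line cannot be told apart in this design. In the sample titles, the suffixes of the VIM libraries continued those of the VM libraries. Those of the MYC-2983 libraries repeated the VM suffixes. What the suffixes stand for was not given.

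A gene was counted as a member when it differed in the same direction in both Vhl-deleted lines from MYC-2983 cells, with an adjusted p under 0.05 and a log2 change beyond 1 in each of the comparisons (limma, Benjamini-Hochberg adjustment). The values were upper-quartile normalized RSEM units, tested as log2(value + 1), which understates the change of low genes. Of the 21705 genes in the table, 15462 were above 0 in at least 4 of the 12 libraries and were tested, and 2138 were members. Of these, 470 were higher in both Vhl-deleted lines (3.04% of the genes tested) and 1668 were lower in both (10.8%). The comparison of VM with MYC-2983 cells alone called 1272 genes higher (8.23% of those tested) and 2516 lower (16.3%), and that of VIM with MYC-2983 cells 1034 higher (6.69%) and 2903 lower (18.8%). Both comparisons used the same 4 MYC-2983 libraries, so their overlap was fixed in part by that sharing and is not a result. With quantile normalization in place of the authors' scaling the members were 988 higher and 1131 lower, a share of lower members of 53.4% in place of 78%, so the excess of lower over higher members depended on the scaling. The last member inside the threshold among genes reaching 50 units was Rnf24, with a smaller change of 1.0007, and the first outside it was Slc6a17, with 0.9948. On the lower side these were Sox12 (-1.0001) and Tsr1 (-0.9978).

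VHL is the substrate receptor of a ubiquitin ligase that marks the alpha subunits of the hypoxia-inducible factors (HIFs) for destruction once prolyl hydroxylases of the EGLN family have modified them. Without VHL the alpha subunits persist at normal oxygen, pair with ARNT and bind a short core motif near genes for glucose use, vessel growth and mitochondrial turnover. Loss of VHL is the characteristic lesion of clear cell renal carcinoma.

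Before the values, the stretches ahead of 5 HIF-list members are shown, because the HIF core motif can be read in them and their genes are followed below. They are the 5 with the largest smaller change among those with a match ahead of the start. Sequences are from RefSeq (GRCm38.p6), 5′ to 3′ on the strand of the gene, with ACGTG or GCGTG on either strand in capitals (on the other strand these letters read CACGT and CACGC).
Egln3 (chr12:54204025-54204124, minus strand): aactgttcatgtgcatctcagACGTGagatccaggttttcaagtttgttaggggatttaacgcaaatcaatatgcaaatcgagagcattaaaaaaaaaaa
Bnip3 (chr7:138909550-138909649, minus strand): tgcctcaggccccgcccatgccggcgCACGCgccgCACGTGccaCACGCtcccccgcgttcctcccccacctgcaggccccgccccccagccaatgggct
Pdk1 (chr2:71873096-71873195, plus strand): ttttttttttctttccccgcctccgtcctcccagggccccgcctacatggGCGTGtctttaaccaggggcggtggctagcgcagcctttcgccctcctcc
Slc16a3 (chr11:120948967-120949066, plus strand): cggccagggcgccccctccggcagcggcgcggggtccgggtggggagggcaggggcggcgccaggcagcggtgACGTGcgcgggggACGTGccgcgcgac
Pfkl (chr10:78009857-78009956, minus strand): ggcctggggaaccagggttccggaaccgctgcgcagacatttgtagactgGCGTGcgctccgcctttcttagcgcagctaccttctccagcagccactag
The Bnip3 stretch also holds CACGTG, the E-box bound by MYC and related factors, which contains ACGTG on both strands and was counted once for each. Of the 18 higher members of the HIF lists, 17 had a RefSeq window from 250 bases before to 50 after a start (Ero1l had none), and in 15 of the 17 at least 1 window held a match. Of all tested HIF-list genes with a window, moved or not, 48 of 54 held one. A match was present for 64.9% of the 10767 tested genes with a window and, likewise, for 64.9% of the higher members with one, although under 80% of tested genes had a window. By window, it was present in 43.8% of all 32851 RefSeq windows and in 59% of the 13709 windows of tested genes. These are letter matches, not measured binding.

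Vhl and Cdkn2a followed the genotype labels. Vhl (mm9 chromosome 6, 113573953 to 113581627) had 533, 526, 543 and 529 units in MYC-2983 cells, 25.6, 35.3, 38.8 and 24.3 in VM cells and 9.49, 15.6, 18.4 and 24.9 in VIM cells. The lowest MYC-2983 library lay above every library of the Vhl-deleted lines, and the log2 changes were -4.09 (SE 0.214) in VM and -4.96 (SE 0.214) in VIM cells (limma, adjusted p = 5.01e-12 and 3.22e-13). Cdkn2a had 3564 ± 210 units in MYC-2983, 5162 ± 476 in VM and 34.1 ± 5.36 in VIM cells (SD, n = 4). Myc had 1831 ± 45.7, 1364 ± 46.5 and 1479 ± 65.4 units (SD, n = 4), with log2 changes of -0.42 and -0.31, so the Vhl-deleted lines had somewhat less Myc RNA than the reference. Myc did not follow the Dox labels, with means of 676, 384 and 381 units in the MYC-2983, VM and VIM libraries labelled with Dox, below those without Dox in each line. The row therefore gives no check that the transgene was off, and the Dox state was taken from the labels. Pax8 and Cdh16 were present in all 3 lines, and other epithelial markers differed. Pax8, a renal lineage transcription factor, had 3835 ± 109 units in MYC-2983, 3784 ± 67.8 in VM and 2573 ± 75 in VIM cells, and Cdh16, which encodes Ksp-cadherin itself, 12708 ± 362, 9009 ± 149 and 7335 ± 257 (SD, n = 4). Krt18 was near the floor in VM cells (457 ± 34.2, 5.63 ± 3.03 and 229 ± 16.9 units), and Cdh1, E-cadherin, was low in VIM cells (267 ± 11.6, 376 ± 33.7 and 41.9 ± 2.39 units, SD, n = 4). Lhx1 and Krt8 were lower members, and Epcam was at 215 ± 3.77 units in VM against 44.2 ± 6.64 in MYC-2983 cells (SD, n = 4). None of the 5 tested X-inactivation and Y-linked genes was a member.

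Of the HIF machinery, the hydroxylase genes Egln3 and Egln1 rose and the RNA of HIF-1 alpha fell. Egln3, a hydroxylase gene that is itself induced by HIF, had 68.2, 98.7, 76.4 and 81.1 units in MYC-2983 cells, 5466, 5550, 5798 and 5575 in VM cells and 1724, 1610, 1605 and 1579 in VIM cells. The groups did not overlap, and the means were 69-fold higher in VM and 20.1-fold higher in VIM cells (log2 changes of 6.10 and 4.32, SE 0.0749, larger adjusted p = 1.39e-18). The log2 difference of VIM minus VM cells was -1.78 (adjusted p = 2.65e-13). Egln1, the hydroxylase with the main part in oxygen sensing, rose 2.03-fold in VM and 3.03-fold in VIM cells. Hif1a had 3884 ± 40.8 units in MYC-2983 cells and 1387 ± 107 and 1395 ± 25.1 in VM and VIM cells (SD, n = 4), which makes it 2.8-fold and 2.78-fold lower. Epas1, which encodes HIF-2 alpha, had 58.9 ± 5.65, 80.2 ± 7.75 and 81.4 ± 8.95 units (SD, n = 4), a log2 difference of 0.44 and 0.46 that stayed short of the threshold of 1. Hif3a fell, from 26.2 ± 6.02 to 1.45 ± 1.69 and 0 units (SD, n = 4). The ligase partners Tceb1, Tceb2, Cul2 and Rbx1 were no members. In all, 2 of 13 tested machinery genes were higher and 2 lower members (15.4% each, against 3.04% and 10.8% of all genes). RNA levels of HIF subunits say nothing on their protein levels, which were not measured here.

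**Figure D1:**
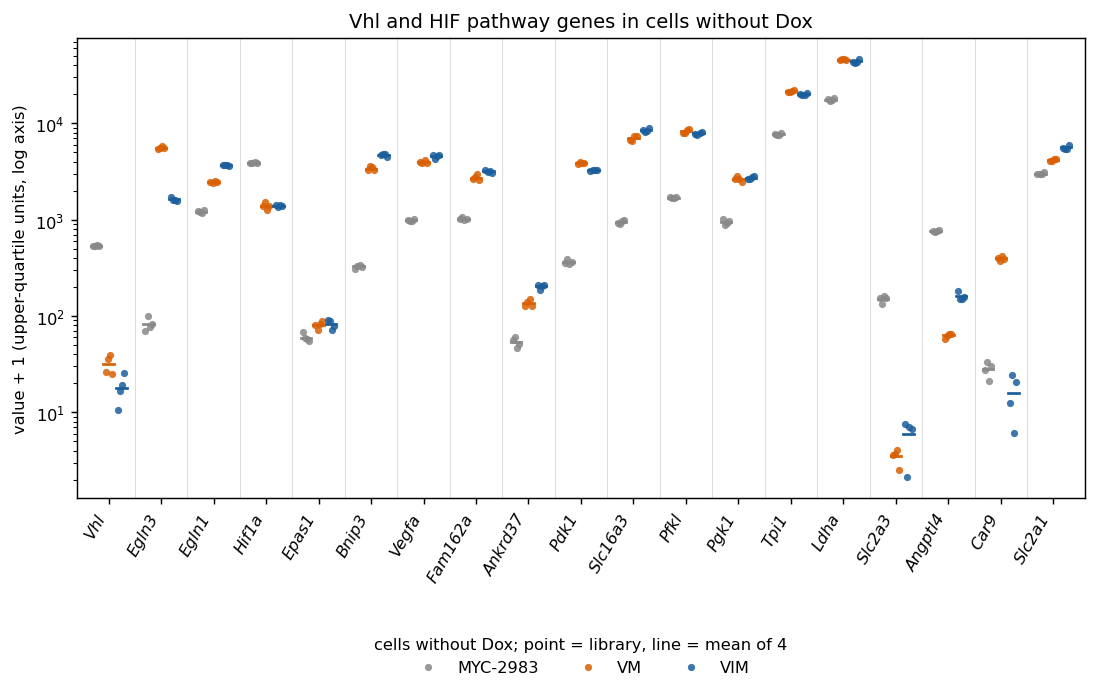
Values of Vhl and 18 HIF pathway genes in each of the 12 libraries without Dox, on a log axis in upper-quartile units plus 1; points are libraries and lines group means. Egln3 sits near 81.1 units in MYC-2983 cells, at 5597 in VM and at 1629 in VIM cells, whereas Car9 is high in VM cells alone among the 3 lines.

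Among HIF targets outside glycolysis, 8 of 39 tested genes were higher and 3 lower members (20.5% and 7.69%, against 3.04% and 10.8% of all genes). The list medians were log2 changes of 0.50 in VM and 0.47 in VIM cells, with -0.10 and -0.20 over all genes tested. Bnip3, which promotes the removal of mitochondria, had 310, 332, 339 and 325 units in MYC-2983 cells, 3257, 3570, 3498 and 3238 in VM cells and 4742, 4800, 4781 and 4523 in VIM cells. It was 10.4-fold and 14.4-fold higher (larger adjusted p = 3.50e-21). Vegfa, the main angiogenic growth factor, had 990, 972, 971 and 1010 units in MYC-2983 cells, 3943, 3898, 4164 and 3878 in VM cells and 4672, 4236, 4530 and 4709 in VIM cells, without overlap and 4.03-fold and 4.6-fold higher. The other higher members were Fam162a, Ankrd37, Higd1a, Ccng2, Ero1l (an oxidoreductase of the endoplasmic reticulum) and Ddit4 (an inhibitor of mTORC1), with smaller changes between 1.10 and 1.41. Angptl4 moved the opposite way, from 764 ± 11.4 units to 62 ± 3.37 in VM and 160 ± 14.9 in VIM cells (SD, n = 4), and Cxcr4 and Ppp1r3c, at 8.86 ± 3.55 and 23.6 ± 4.8 units in MYC-2983 cells (SD, n = 4), were also lower.

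Other HIF targets differed between the Vhl-deleted lines and were no members. Car9, the tumour carbonic anhydrase used as a marker of clear cell carcinoma, had 397 ± 19.1 units in VM cells against 27.2 ± 5.12 in MYC-2983 and 15 ± 8.28 in VIM cells (SD, n = 4), with a log2 difference of -4.82 between VIM and VM cells. Adm, a vasodilator peptide, had 613 ± 51.5 units in VIM cells, 114 ± 9.74 in MYC-2983 and 45.7 ± 7.75 in VM cells (SD, n = 4). Lox, a collagen crosslinking enzyme, was at 4315 ± 132 units in MYC-2983 and 5985 ± 163 in VIM cells (SD, n = 4) and at or under the floor of 3 reads in every VM library, at least 1631-fold lower than in MYC-2983 cells. Slc2a1, the glucose transporter, rose in both lines without reaching the threshold (log2 differences of 0.47 and 0.90). Ccnd1 did not pass the test either, at 2735 ± 68.7, 2752 ± 118 and 2541 ± 73.6 units (SD, n = 4).

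Of 23 genes for glucose uptake, glycolysis and lactate export, 8 were higher and 1 lower members. The shares were 34.8% and 4.35%, against 3.04% and 10.8% of all genes, with list medians of 0.55 in VM and 1.05 in VIM cells. Pdk1, a kinase that inhibits pyruvate dehydrogenase, had 356, 386, 347 and 365 units in MYC-2983 cells, 3754, 3929, 3864 and 3872 in VM cells and 3215, 3263, 3264 and 3242 in VIM cells. It was 10.6-fold and 8.94-fold higher (larger adjusted p = 4.06e-21). Slc16a3, the lactate exporter MCT4, had 931, 900, 967 and 986 units in MYC-2983 cells, 6693, 6549, 7364 and 7357 in VM cells and 8496, 8210, 8391 and 9035 in VIM cells, 7.39-fold and 9.02-fold higher. The phosphofructokinase Pfkl rose 4.87-fold and 4.63-fold, and VM and VIM cells did not pass the test against each other for it (log2 difference -0.07). Lactate dehydrogenase Ldha was 2.59-fold and 2.48-fold higher, and Tpi1, Pgk1, Pfkp and Gpi1 had smaller changes of 1.37, 1.48, 1.06 and 1.03. Aldoa, Pgam1 and Pfkfb3 missed membership by the VM comparison (0.95, 0.89 and 0.98) and were beyond 1 in VIM cells. The exception was Slc2a3, a further glucose transporter, which fell from 149 ± 11.7 to 2.5 ± 0.681 and 4.92 ± 2.56 units (SD, n = 4).

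**Figure D2:**
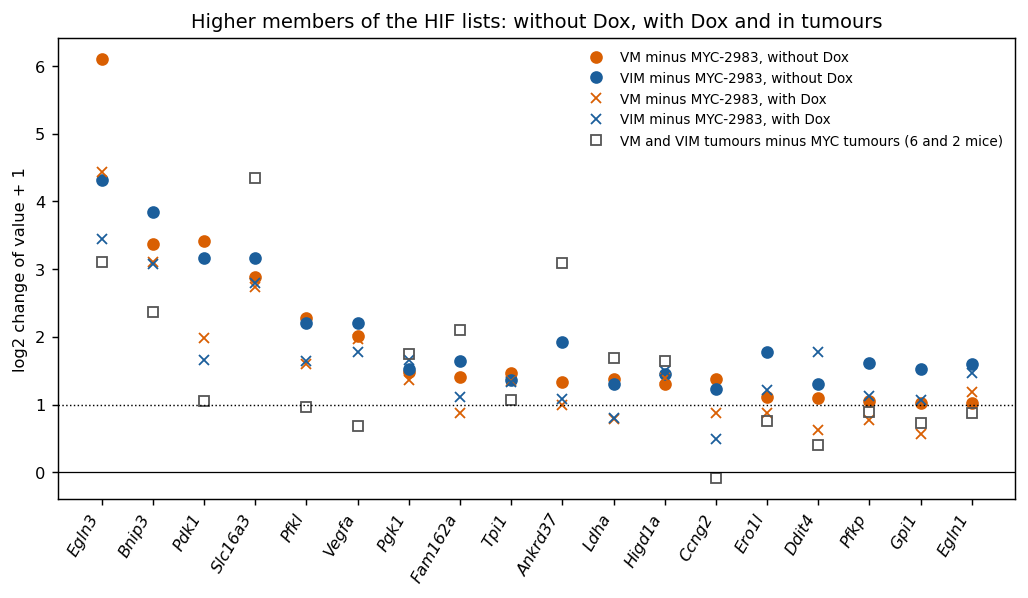
Log2 change of the 18 higher members of the HIF lists: VM and VIM minus MYC-2983 cells without Dox (filled points), the same with Dox (crosses) and VM and VIM minus MYC tumours (open squares, 6 and 2 mice); the dotted line marks 1. All 18 were above 0 in both lines with Dox, and 17 of 18 in tumours, where Ccng2 lay at -0.08 and 40.6% of all genes were above 0.

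Of the 32 subunits of oxidative phosphorylation 1 was a higher member (3.12%, against 3.04% of all genes). Of the 23 tested genes of lipid storage and fatty acid oxidation 3 were lower (13%, against 10.8%). Both counts were thus near the shares over all genes. Among these 3 lower members was Cpt1a, which controls the entry of fatty acids into mitochondria (1440 ± 50.8, 332 ± 31.2 and 367 ± 7.92 units, SD, n = 4).

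The members with the largest rise were of mixed kind and lay outside the HIF lists. By the rule of the named genes, the first 12 were Krt19, Hmgcll1, Trpm2, Tex13, D7Ertd715e, Snurf, Xlr, Atp7b, 4930452B06Rik, Sprr1b, Wrap53 and Cd93. Krt19, a keratin of duct epithelium, was between 0.579 and 2.72 units in MYC-2983 cells, between 319 and 381 in VM cells and between 3093 and 3449 in VIM cells (log2 changes of 7.35 and 10.53, larger adjusted p = 1.64e-16). Tex13, an X-linked gene expressed in testis, was at 0 in all 4 MYC-2983 libraries, at 409, 446, 407 and 409 units in VM cells and at 159, 157, 192 and 147 in VIM cells, at least 212-fold and 82.9-fold higher (against the floor of 3 reads per library). Trpm2, a calcium channel, was also at 0 in all MYC-2983 libraries and had 251 ± 30.5 units in VM and 94.8 ± 10.1 in VIM cells (SD, n = 4). Hmgcll1 (272 ± 18.6 and 221 ± 9.73 units, SD, n = 4) was at least 138-fold and 112-fold higher, and Xlr at least 104-fold and 31.2-fold.

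Several of these genes lie beside, share reads with, or overlap another gene, and their values are uncertain where the counting could split reads. Hmgcll1, Cldn3, Ankrd37, Tpi1, Pfkp and Gpi1 are among the named genes that overlap a gene on the other strand. So are Cd34, Fkbp10 and Bcat2, lower members taken up below. Whether the counting used strand was not given in the sources used here. Xlr, the Gstm, Oas and Ifit genes belong to families of similar copies. Wrap53, a neighbour of Trp53 that does not overlap it in the annotation used, had 5.6 ± 0.811 units in MYC-2983 cells without Dox, 282 ± 11.1 in VM and 263 ± 11.7 in VIM cells (SD, n = 4). With Dox the MYC-2983 cells had 45.7 units of Wrap53. Trp53 itself had means of 166 units in MYC-2983, 227 in VM and 2248 in VIM cells and was no member. Snurf, whose transcript also encodes Snrpn, had means of 1.19, 129 and 202 units without Dox and 38.1 units in MYC-2983 cells with Dox, while Snrpn was listed at 0 in every group of cells. Cd93, a receptor of endothelial and myeloid cells, had 1.27 ± 0.814, 77.2 ± 8.47 and 110 ± 16 units without Dox (SD, n = 4) and 10.7 and 12.3 in VM and VIM cells with Dox.

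Junction and keratin genes divided. Of 30 tested, 4 were higher and 7 lower (13.3% and 23.3%, against 3.04% and 10.8% of all genes). Dsp, the desmosomal plaque protein, had 147, 155, 132 and 167 units in MYC-2983 cells, 1685, 1820, 1516 and 1762 in VM cells and 1322, 1265, 1278 and 1413 in VIM cells, 11.3-fold and 8.78-fold higher. Cldn4 rose 38.1-fold and 8.73-fold, and Esrp1, an epithelial splicing regulator, had 3.9 ± 1.5, 257 ± 1.14 and 56.2 ± 8.27 units (SD, n = 4). The tight junction genes Cldn3 and Marveld2 went the other way, Cldn3 from 114 ± 14.6 units (SD, n = 4) to 0 in every library of both Vhl-deleted lines, at least 43.2-fold and 34.2-fold lower. Cldn2, Cldn7, Marveld3, Krt8 and Esrp2 were the other lower members.

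Among signalling genes, Wnt7b had 252, 224, 241 and 245 units in MYC-2983 cells, 3146, 3152, 3278 and 3439 in VM cells and 1362, 1416, 1384 and 1520 in VIM cells, 13.5-fold and 5.91-fold higher. Wnt4 rose as well (169 ± 8.32, 791 ± 70.7 and 714 ± 48.2 units, SD, n = 4). Of the 32 tested genes of the WNT list, these 2 were higher and 9 lower members. The shares were 6.25% and 28.1%, against 3.04% and 10.8% of all genes. The lower ones included Axin2, a target of WNT signalling (135 ± 9.82, 30.2 ± 8.42 and 18.8 ± 2.42 units, SD, n = 4). Ret, the GDNF receptor of the ureteric bud, rose 17.8-fold and 14.3-fold. It was the 1 higher member of 33 receptor tyrosine kinases (3.03%), near the share over all genes. The 8 lower ones (24.2%) included Kit, at 0 in both Vhl-deleted lines, Fgfr1 and Pdgfrb. Cdkn1a, the CDK inhibitor p21, had 271 ± 27 units in MYC-2983, 1174 ± 53.9 in VM and 2002 ± 81.9 in VIM cells (SD, n = 4), 4.33-fold and 7.39-fold higher, and Trp53inp1 rose with it. They were the 2 higher members of 28 CDK inhibitors and p53 targets (7.14%, against 3.04% of all genes). The 2 lower ones (7.14%, against 10.8%) were Cdkn1c and Fas. Cdkn1c had means of 71.65, 1.759 and 4.647 units in MYC-2983, VM and VIM cells, and Fas 90.13, 4.312 and 41.55. Cyclin and mitosis genes had 0 higher and 2 lower members of 30 (Mcm4 and Mcm5), and ribosome biogenesis 1 lower member of 20 (Npm1). These lower shares, 6.67% and 5%, were below the 10.8% of all genes. Npm1 lost its call with TMM rescaling (log2 change -0.95), with quantile normalization (-0.81) and without MYC-2983 library 1 (-0.99), VM library 3 (-0.99) or VM library 4 (-0.98).

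**Figure D3:**
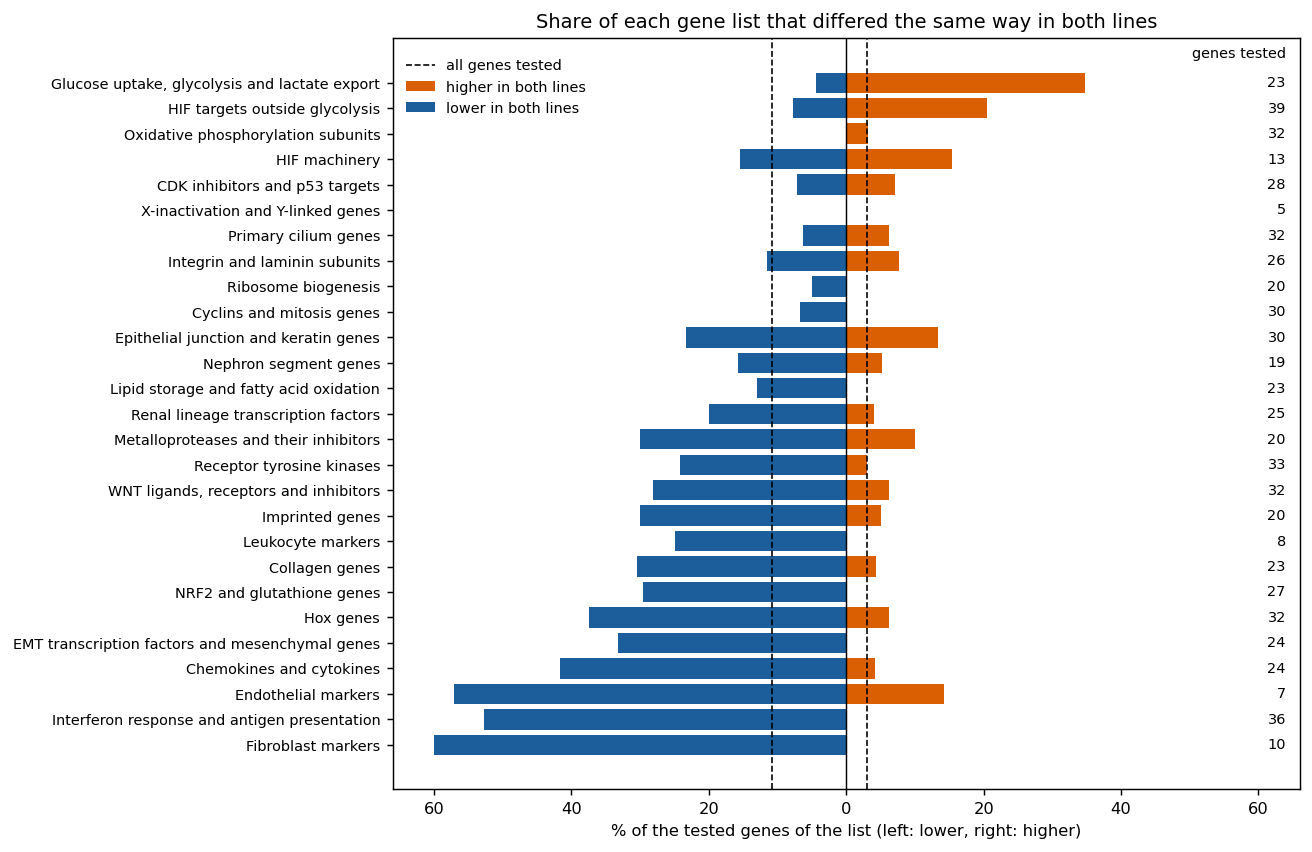
Share of the tested genes of each list that were higher (right, orange) or lower (left, blue) in both Vhl-deleted lines; dashed lines give the shares over all genes tested, 3.04% and 10.8%, and the numbers at the right the genes tested. The glycolysis list has the largest share of higher members at 34.8%, and the interferon list has 52.8% lower and 0 higher members.

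Some genes of contractile and matrix-producing cells were far lower in both Vhl-deleted lines than in MYC-2983 cells, while the summed levels of their lists were not lower in VIM cells. Acta2, smooth muscle actin, had 66783, 67023, 66773 and 71100 units in MYC-2983 cells, 5.29, 6.98, 6.2 and 10.6 in VM cells and 5148, 4610, 4858 and 5094 in VIM cells (log2 changes of -13.04 and -3.79, larger adjusted p = 3.56e-15). VM cells thus had almost none, and VIM cells stood 9.26 above them on the log2 scale. Postn, a matrix protein of activated fibroblasts, had 26766, 27403, 26439 and 27627 units in MYC-2983 cells and between 41.8 and 170 in the 8 libraries of the Vhl-deleted lines, 452-fold and 165-fold lower. Cd34, a surface sialomucin of progenitor and endothelial cells, had 9029, 8620, 8813 and 8912 units in MYC-2983 cells and between 4.46 and 9.31 in the others, 1231-fold and 1455-fold lower. In the EMT and mesenchymal list 8 of 24 genes were lower and 0 higher members (33.3% lower). In the collagen list 7 of 23 were lower and Col7a1 alone was higher (30.4% and 4.35%). The shares over all genes were 10.8% lower and 3.04% higher. The list medians were -1.75 and -3.02 in VM cells but -0.33 and -0.69 in VIM cells, so the medians were further below 0 in VM than in VIM cells. The summed level of the EMT and mesenchymal list was 389959 to 411641 units in MYC-2983, 198825 to 242263 in VM and 469020 to 513878 in VIM cells, where 6 of its genes were called higher and 9 lower. The collagen sum was 49627 to 52594, 26517 to 29086 and 52098 to 57975 units. Col1a1 (407 ± 22, 22.4 ± 3.85 and 59.5 ± 11.9 units, SD, n = 4) and Col3a1 were lower in both lines, and the basement membrane genes Col4a3 and Col4a4 also. Col7a1, the anchoring fibril collagen, had 456 ± 9.33, 2560 ± 310 and 3586 ± 366 units (SD, n = 4).

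Some fibroblast and endothelial markers were lower along with these genes and others were not, and leukocyte markers were mixed. Of the fibroblast markers 6 of 10 tested were lower and 0 higher members (60% lower, against 10.8% of all genes). The summed level of the list ranged from 1159 to 1359 units in MYC-2983, 634 to 712 in VM and 194 to 249 in VIM cells. Most of the VM sum was Col1a2, with means of 421, 650 and 97.4 units in the 3 lines. Thy1 was at 26.9 to 44.1 units in MYC-2983 cells and at 0 in all 8 other libraries, Dcn was between 21.4 and 28.3 in MYC-2983 cells, and Lum, Fap, Dpt and Pi16 were at or near 0 in all 3 lines. Of the endothelial markers 4 of 7 tested were lower and 1 higher (57.1% and 14.3%), with sums of 67.7 to 84.9, 24.3 to 36.4 and 23.4 to 43.7 units and Tie1, Emcn and Cldn5 at 0 in all 12 libraries. The lower ones were Esam and Plvap, with means of 16.5 and 20 units in MYC-2983 cells, and Cdh5 and Kdr, near the floor at 2.59 and 3.86. Vwf was the higher one, and Pecam1 and Eng were no members. Of the leukocyte markers 2 of 8 were lower (25%), with sums of 1310 to 1392, 1146 to 1212 and 602 to 684 units, mostly Cd14 and Csf1r, and Cd3e, Cd3g and Emr1 at 0. The medians of the leukocyte list, -0.15 and -0.24, were close to those of all genes, and 3 of its genes were called higher in VM cells, where Ptprc had a mean of 58.3 units against 8.34 and Csf1r 859 against 400 in MYC-2983 cells. The part of other cell types in the matrix and contractile results was not tested, and fewer cells of a type cannot be told apart from less RNA per cell.

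**Figure D4:**
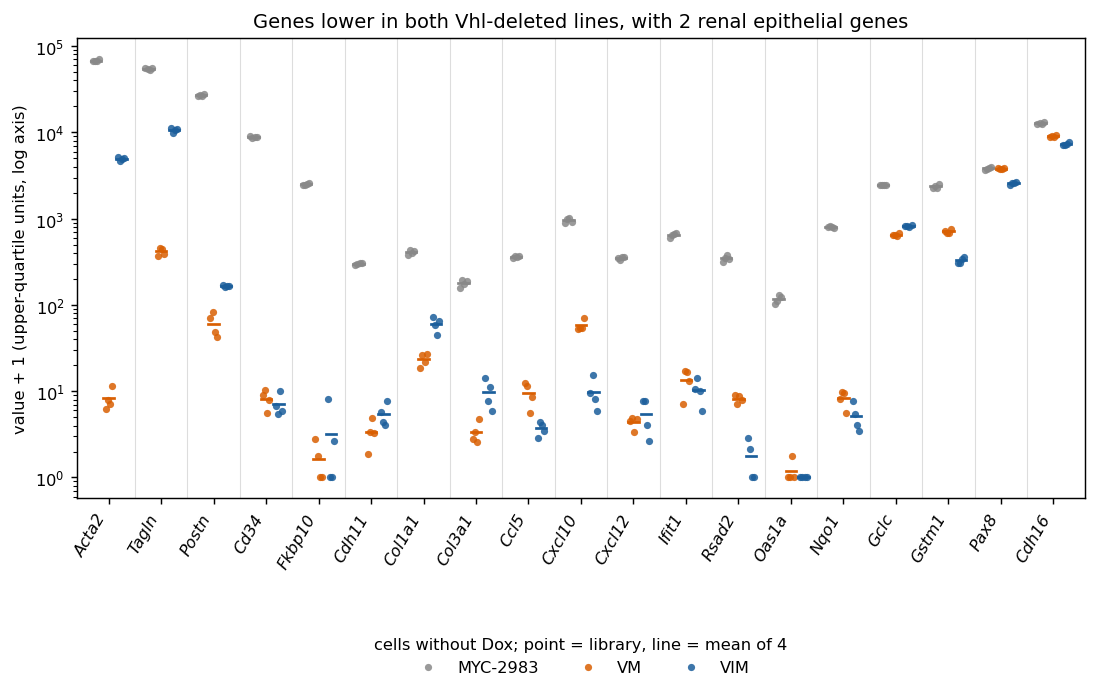
Values of 17 lower members and of the renal epithelial genes Pax8 and Cdh16 in each of the 12 libraries without Dox, on a log axis in upper-quartile units plus 1. Postn and Cd34 lie at 27058 and 8844 units in MYC-2983 cells and at 170 units or less in every other library, while Pax8 lies between 2573 and 3835 in the 3 group means.

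Interferon-stimulated and antigen presentation genes had the largest share of lower members among the lists with more than 10 tested genes. Of 36 tested, 19 were lower and 0 higher (52.8% lower, against 10.8% of all genes), with medians of -1.95 in VM and -2.51 in VIM cells. Ifit1, an antiviral RNA-binding protein, had 598, 652, 655 and 684 units in MYC-2983 cells, 6.17, 16.3, 15.5 and 12.2 in VM cells and 9.49, 13.4, 9.18 and 4.98 in VIM cells, 51.7-fold and 69.9-fold lower (larger adjusted p = 9.36e-13). Oas1a, Iigp1, Rsad2, Usp18 and Nlrc5, the last an activator of MHC class I genes, had log2 changes between -7.78 and -4.19, and Irf7, Isg15, Tap1, Psmb8 and Psmb9 were lower members too. Chemokines and cytokines had 10 lower members and 1 higher member (Il18) of 24 (41.7% and 4.17%, against 10.8% and 3.04% of all genes). Ccl5 had 345, 365, 357 and 363 units in MYC-2983 cells and between 1.9 and 11.5 in the others, Cxcl10 had 958 ± 60.3, 56.9 ± 8.15 and 8.79 ± 4.08 units, and Cxcl12, the ligand of Cxcr4, 346 ± 12.2, 3.38 ± 0.72 and 4.51 ± 2.55 (SD, n = 4). Cxcl10 overlaps Art3 on the other strand.

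NRF2 targets and glutathione genes had 8 lower and 0 higher members of 27 (29.6% lower, against 10.8% of all genes). Nqo1, the quinone reductase that is a standard reporter of NRF2, had 807, 817, 792 and 788 units in MYC-2983 cells, 7.06, 8.92, 8.53 and 4.56 in VM cells and 6.64, 4.46, 3.06 and 2.49 in VIM cells, 110-fold and 192-fold lower. Gclc, the rate-limiting enzyme of glutathione synthesis, was 3.77-fold and 2.99-fold lower, and Gstm1 3.34-fold and 7.2-fold. The median of the list was only -0.25 and -0.34, close to that of all genes tested (-0.10 and -0.20).

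Genes that set position and lineage in the kidney were also lower. Of 32 Hox genes 12 were lower members, from the B, C and D clusters, and Hoxa13 and Hoxc13 were higher. Hoxb6 had 788, 749, 764 and 805 units in MYC-2983 cells, 0 in all VM libraries and 80.7, 68, 87.8 and 73.8 in VIM cells. Hoxb7 and Hoxb8 overlap on the same strand, so their values are uncertain. Of 25 renal lineage transcription factors, Irx1, Irx2, Lhx1, Hnf4a and Gata3 were lower and Tfap2a higher. Irx1 had 187, 211, 223 and 216 units in MYC-2983 cells and 0 in every other library. Of 19 nephron segment genes 3 were lower (15.8%, against 10.8% of all genes), among them the water channel gene Aqp1 (2191 ± 56.9, 545 ± 40.8 and 887 ± 24.2 units, SD, n = 4). Of the imprinted genes 6 of 20 were lower. H19, which overlaps Mir675, had 1000 ± 38.5 units in MYC-2983 cells, 0.895 ± 0.187 in VM and 3.93 ± 2.25 in VIM cells (SD, n = 4), and Igf2, Cdkn1c, Mest and Igf2r were also lower members. Kcnq1ot1 was the 1 higher member of this list. Snurf, whose transcript also encodes Snrpn, and D7Ertd715e, both among the largest rises above, were not counted in it. Other lists had 2 higher and 2 lower of 32 primary cilium genes (6.25% each) and 2 and 3 of 26 integrin and laminin subunits (7.69% and 11.5%). Of 20 metalloproteases and their inhibitors 2 were higher and 6 lower (10% and 30%), Mmp2 and Mmp9 among the lower. The shares over all genes were 3.04% and 10.8%.

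The other genes at the head of the lower members were Fkbp10, Crip1, Ugt3a2, Bcat2, Slc1a3, Cthrc1, Itm2a, Pid1 and Ptprz1. Ugt3a2, a glycosyltransferase, had 1083, 1047, 1049 and 1109 units in MYC-2983 cells and 0 in all 8 other libraries, at least 405-fold and 320-fold lower. Fkbp10, a collagen chaperone, had 2518 ± 69.4 units in MYC-2983 cells and at most 7.08 in any other library (SD, n = 4), and Bcat2, the mitochondrial branched-chain aminotransferase, 633 ± 9.57 against 0.772 ± 1.1 and 0.753 ± 0.927 (SD, n = 4). Over all members, the median smaller change was 1.54 for the higher and -1.98 for the lower ones. Of the higher members 86 were at or under 3 reads in every MYC-2983 library, and of the lower members 460 were so in every VM and VIM library.

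The lower members were not spread evenly over the chromosomes. Of the tested genes on chromosome 11, 206 of 1252 were lower in both lines (16.5%), and on chromosome 15, 103 of 603 (17.1%), against 10.8% overall. The share was 14.2% on chromosome 8, 13.1% on chromosome 18 and 7.85% on chromosome 10. Among the more abundant genes, averaging 50 units or more, the median log2 change on chromosome 11 was -0.46 in VM and -0.49 in VIM cells (900 genes), on chromosome 15 -0.45 and -0.48 (438 genes) and on chromosome 16 -0.40 and -0.42 (347 genes), with -0.06 and -0.13 over all genes of that level. Chromosome 3 was low in VIM cells (-0.72) and less so in VM cells (-0.13), and chromosome 8 more in VM (-0.51) than in VIM cells (-0.24). The chromosome 11 and 15 medians with Dox were -0.52 and -0.43 in VM and -0.44 and -0.40 in VIM cells. In tumours, VM and VIM against MYC, they were -0.07 and -0.16. Those values lay within the range of all chromosomes there, -0.22 (chromosome 19) to 0.02 (chromosome 4). The Hoxb cluster, Ccl5, Fkbp10 and Lhx1 lie on chromosome 11 and Slc1a3, Ugt3a2, Cthrc1 and Krt8 on chromosome 15. The higher members Krt19, Wrap53 and Slc16a3 also lie on chromosome 11. Copy number was not measured here, and its part in these shifts was not tested.

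**Figure D5:**
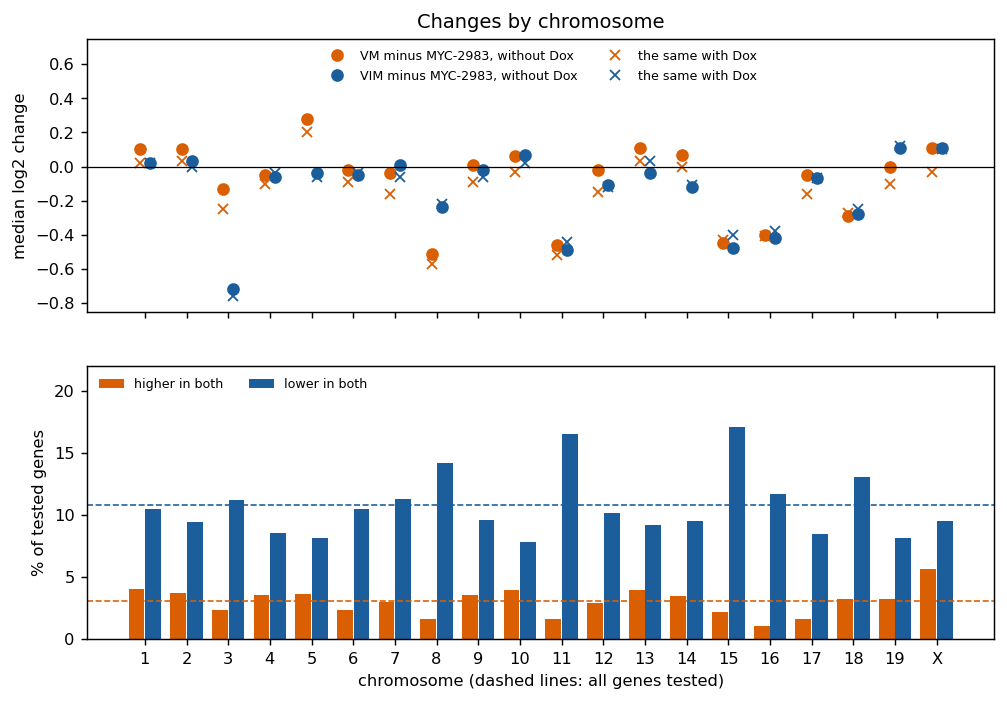
Above, median log2 change on each chromosome over genes averaging 50 units or more, VM (orange) and VIM (blue) minus MYC-2983 cells, without Dox (points) and with Dox (crosses). Below, share of tested genes that were higher or lower in both lines, with the shares over all genes as dashed lines; chromosomes 11 and 15 have 16.5% and 17.1% lower members.

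The same comparison was made in the 12 libraries labelled with Dox, which were other libraries of the same lines. There 366 genes (2.42% of 15149 tested) were higher and 1740 (11.5%) lower in both Vhl-deleted lines. Of the 470 higher members 252 were called higher again (54% of the 467 tested), and of the 1668 lower members 1223 were called lower again (76.6% of 1596). Only Rfx2, a ciliogenic transcription factor, was called the opposite way, with means of 26.9, 116 and 62 units in MYC-2983, VM and VIM cells without Dox and 168, 48.7 and 44.8 with Dox. Of the 18 higher HIF-list members 10 were called again, and of the 6 lower ones 5, all but Hif1a. The difference between the contrasts without and with Dox was tested as an interaction over all 24 cell libraries, and 45.5% of all genes passed it (adjusted p under 0.05). It passed together with a difference over 1 for 27.2% of higher and 27.3% of lower members, against 7.27% of all genes. The contrast was larger without Dox for 121 of these 128 higher members and 355 of 456 lower members, and the members had been selected on the contrast without Dox. Egln3 was 1.27 and Pdk1 1.46 higher on the log2 scale in the contrast without Dox (adjusted p = 7.01e-13 and 9.41e-21), and Egln1 (-0.02) and Pgk1 (-0.00) did not pass.

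The VM and VIM lines also differed from each other. Between them 3210 genes were called (20.8% of those tested), and of the members 148 of 470 higher ones (31.5%) and 548 of 1668 lower ones (32.9%) were called, so a shared direction did not mean a shared size. The log2 difference of VIM minus VM cells was 3.18 for Krt19 and 9.26 for Acta2, and -1.78 for Egln3, -2.12 for Cldn4 and -2.64 for Cxcl10, each with an adjusted p under the threshold.

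Tumours of the same genotypes were compared in the same way, and they were not fully independent of the lines. One of the MYC mice carried the number of the MYC-2983 line, and VM mouse 3055 that of a VM line. Libraries of 1 mouse were averaged, which left 2 MYC, 3 VM and 3 VIM mice, and these tumours hold stroma and blood vessels besides tumour cells. The mean of VM and VIM against MYC tumours called 5 of 16607 genes higher (0.0301%) and 0 lower (limma, adjusted p under 0.05), while an unadjusted p under 0.05 gave 984 higher (5.93%) and 1454 lower (8.76%). Of the 447 higher members with a value 2 were called, Afp and Me1, and of the 1612 lower members 0, although D630023F18Rik, a lower member in cells, was called higher in tumours. These counts were unstable: the higher one was 0 with a pseudocount of 0.1, with TMM or without most single mice and 7 without MYC mouse 2983, and the lower one was 11 with a pseudocount of 10. The higher members had the same sign in tumours in 205 of 447 cases (45.9%, against 40.6% of all genes above 0), and the lower members in 1137 of 1612 (70.5%, against 59.4% under 0). The mice did not overlap in the same direction for 38 higher members (8.5%, against 6.46% of all genes) and 221 lower members (13.7%, against 10.4%).

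Of the 18 higher members of the HIF lists, 17 were above 0 in tumours, 14 had an unadjusted p under 0.05, 8 did not overlap between genotypes, and 0 passed the adjustment (adjusted p between 0.0906 and 0.951). Of the 6 lower members of the HIF lists 3 kept their sign in tumours, where 59.4% of all genes were under 0. Angptl4, Hif3a and Ppp1r3c were above 0 there (log2 changes of 1.35, 1.32 and 1.31, with adjusted p of 0.492, 0.32 and 0.526). Egln3 had 356 and 1071 units in the MYC mice, 7253, 4896 and 8108 in the VM mice and 7956, 2091 and 4580 in the VIM mice. All 6 Vhl-deleted tumours lay above both MYC tumours, with a log2 change of 3.10 (adjusted p = 0.0906). Slc16a3 had 39.3 and 1073 units in MYC, 6297, 6833 and 6700 in VM and 3142, 1729 and 3512 in VIM tumours (4.34, adjusted p = 0.133). Vhl was at 560 and 469 units in MYC, 40.7, 40.2 and 79.9 in VM and 312, 219 and 226 in VIM tumours, so more Vhl RNA was left in VIM than in VM tumours. Acta2, by contrast, had 101 and 2027 units in MYC, 223, 75.3 and 410 in VM and 534, 422 and 254 in VIM tumours, with overlap, and Krt19 overlapped as well. Hoxb8 had 985 and 265 units in MYC, 4.93, 0 and 2.66 in VM and 22, 84 and 58.4 in VIM tumours, all 6 below both MYC tumours (adjusted p = 0.0879).

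The 12 libraries held an estimated 12.4 to 36.6 M (mega) reads, with 23.1 to 28.6 M for MYC-2983, 15.1 to 36.6 M for VM and 12.4 to 17.2 M for VIM cells, so 3 reads corresponded to 1.16 to 3.34 units, and differences under that level were not detectable. The floors cover counting error only, while SDs and SEs reflect the spread between libraries of a line.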

How the data were processed

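Libraries were made with the TruSeq Stranded mRNA kit, and reads were aligned to mm9 with MapSplice and quantified with RSEM against UCSC genes, per the study's methods. Picard 1.64 and SAMtools are named in the submitters' processing notes. The deposited values are a signal on a normalized scale: RSEM values that the authors divided by each library's upper quartile and set to 1000. They are not counts, so no count test was run. Per library, 94.4% to 95.9% of values under 20 reads were whole multiples of 1 read (within 0.02), which gave the depth estimate. The deposited table was analysed in R 4.3.3 with limma 3.58.1 on log2(value + 1) for genes above 0 in at least 4 of 12 libraries (tumours: at least 2 mice), with moderated variances and Benjamini-Hochberg adjustment over all genes tested. Samples were grouped by the genotype and treatment labels. Simulated data were made for both Vhl-deleted lines against MYC-2983 cells without Dox (15562 genes). Of 200 changed genes 200 were recovered, and 1 unchanged gene was called. Recovery of changes near the log2 threshold of 1, or of genes near the floor, was not tested by this. The mean variance between libraries was 2.79 times that of read counting in MYC-2983, 8.16 in VM and 2.7 in VIM cells. Recovery and false calls at the spread of each line were not tested separately. Every pair of libraries of a line differed by more than read counting alone gives (a mean squared difference of 1.96 to 17.8 times its variance, largest in pairs with VM library 2), so no pair agreed within sampling noise. Whether they came from separate cultures is not settled by this.

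Members, lists and named genes were chosen with earlier results of these data known, so no p is adjusted over a list alone. Named genes were the engineered genes, the 12 members in each direction with the largest smaller change (averaging 50 units or more in the higher group, groups without overlap), up to 6 per list and direction by the same measure, and all HIF-list genes; Trp53, Snrpn, Rfx2, the other members named by list only, and the markers with low levels were chosen after their values were seen. Gene positions are those of mm9 (GENCODE vM1), which matched 20893 symbols; promoter sequences are from RefSeq on GRCm38.p6, whose coordinates are not those of mm9. Pseudocounts of 0.1 and 10, a filter on a mean under 10 units, no filter, TMM (trims of 30% and 5%) and quantile rescaling, unmoderated variances, 1 fit of all 6 cell groups, a replicate block, voom on recovered reads and each library left out were tried as alternatives. Normal kidney libraries were not used here.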

Additional observations from a re-analysis of the deposited data

Results flagged for a closer look

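In groups of 4 libraries without Dox, the lowest or highest library of a named gene was looked for by the gap to its nearest neighbour as a share of the group's range, against Dixon's critical value for 4 samples. Of 493 gene and group combinations 19 were beyond it, which is under the 1 in 20 that chance gives. In MYC-2983 cells these were Col11a1 (0.993), Acta2 (0.942), Timp3 (0.919), Hk1 (0.912), Adm (0.874), Bcat2 (0.867), Gli3 (0.862), Ccl7 (0.859) and Mmp2 (0.856). In VM cells they were Tex13 (0.943), Cxcl10 (0.915), Cdkn1a (0.867), Hnf4a (0.851), Cdh16 (0.840) and Gli2 (0.835). In VIM cells they were Col4a4 (0.944), Hk1 (0.906), Ephb4 (0.863) and Sprr1b (0.862). The largest of these shares was that of Col11a1 in MYC-2983 cells, with 236 units in 1 library and 285 to 286 in the others. Acta2 had 71100 units in 1 MYC-2983 library and 66773 to 67023 in the others, and the gap of Tex13 in VM cells was 446 against 407 to 409. For Acta2 and Tex13 the MYC-2983 libraries and those of the Vhl-deleted lines did not overlap with or without that library.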

How the results depend on the processing

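The counts of 470 higher and 1668 lower members moved by over 1.5 times under 3 of the alternatives. A pseudocount of 10 left 295 and 1065, all of them among the 470 and 1668, and gave 2522 calls for VM versus M cells without Dox and 1981 for VIM versus VM cells without Dox (M, the MYC-2983 line). A filter on a mean under 10 units left 995 lower members, since fewer genes were tested, and quantile normalization gave 988 higher members, with all 470 among them; the cause was not tested. Leaving out 1 library at a time gave 452 to 476 higher and 1519 to 1673 lower members. The replicate block on the numbers shared by VM and VIM libraries gave 469 and 1668; same-numbered libraries did not deviate together (correlations of -0.011 to 0.0266), so the numbers do not pair the samples. Median log2 changes of genes averaging 50 units or more were -0.06 (VM) and -0.13 (VIM) as deposited, 0.01 and 0.01 with TMM and 0.06 and 0.04 with quantile normalization. Members called again with Dox fell to 158 higher and 800 lower with a pseudocount of 10, and to 693 lower with the filter on a mean under 10 units. In tumours, the 2 higher members called became 0 with a pseudocount of 0.1 and with TMM, and 0 to 7 with a mouse left out (7 without MYC mouse 2983, 1 without VIM mouse 3233 and 0 without any of the other mice); the 0 lower ones became 11 with a pseudocount of 10, 4 with quantile normalization and 0 to 2 with a mouse left out (2 without MYC mouse 2983). Of the named members none changed sign under any alternative; Tfap2a, Ggt1, Fas and Cxcr4 lost the call with a pseudocount of 10, and Timp3, Npm1, Ephb4, Igf2r, Ggt1 and Fas with TMM. Npm1, Ggt1 and Fas also lost it with 1 library left out. Quantile normalization ended the call of 12 named members, among them Gata3, Esrp2, Timp2, Hoxc5 and Pdgfrb. Depth limits statements on genes under 3.34 units.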
